A study of Homo sapiens with 10 samples.

Results

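The cyclins, cyclin-dependent kinases (CDKs) and CDK inhibitors of the G1 phase were examined as a set of 10 genes, chosen by name for their place in G1 control: CCND1, CCND3, CCNE1, CCNE2, CDK4, CDK6, CDK2, CDKN1B, CDKN1C and CDKN2C. They are 10 of the 63299 genes listed in the count tables, and 9 of them are among the 16143 genes with enough reads to be tested. Messenger RNA was sequenced from U2OS cells, a human osteosarcoma line known to keep the retinoblastoma protein and to lack the inhibitor p16, to ask how transcript levels differ when the DEAD box helicase DDX41 is depleted. The siCtrl group had 5 libraries of cells given a control siRNA pool, and the siDDX41 group had 5 libraries of cells given an siRNA pool against DDX41, both for 48 h and with no other agent or genetic change named. Total counts were 23393764 to 24598860 per library in siCtrl and 21807041 to 24896398 in siDDX41, with medians of 23863834 and 23714261.

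Progress through G1 depends on CDKs, which are active only when bound to a cyclin. D-type cyclins with CDK4 or CDK6 begin the phosphorylation of the retinoblastoma protein, which restrains E2F transcription factors, and E-type cyclins with CDK2 carry it on towards S phase. INK4 inhibitors bind CDK4 and CDK6, whereas CIP/KIP inhibitors such as p27 bind cyclin-CDK complexes more broadly.

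Levels are given as CPM, read counts relative to the size of the library, with library sizes scaled by the trimmed mean of M values, and a gene is called changed at an adjusted p-value under 0.01. DDX41 itself (ENSG00000183258.11, GRCh38 chr5:177511577-177516961, minus strand) was at 49.1, 49.4, 47.3, 47.2 and 50.5 CPM in siCtrl replicates 1 to 5. In siDDX41 replicates 1 to 5 it was at 11.5, 13.7, 12.4, 11.2 and 12.3 CPM. Every siDDX41 library lay far below every siCtrl library, with a log2 fold change of -1.99 (edgeR's quasi-likelihood test, Benjamini-Hochberg adjusted p = 4.47e-24). Among osteosarcoma and mesenchymal markers, COL1A1, SPARC and VIM averaged 1881, 2815 and 2472 CPM in siCtrl, here on library totals without further scaling, while COL1A2 averaged 0.450 and TWIST1 was at 0 in 9 of the 10 libraries. Their summed level was 7073 to 7406 CPM in siCtrl and 7122 to 7477 in siDDX41. Of the 5 tested genes in this list, SPARC and CDH11 rose, RUNX2 and VIM fell, and COL1A1 was not called. The 7 epithelial and blood cell markers summed to 8.91 to 10.1 CPM in siCtrl and 8.89 to 10.9 in siDDX41, mostly EPCAM, with CD3E and HBB at 0 in every library and none of the 3 tested genes called.

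Of the 9 tested G1 regulators, 3 rose and 5 fell after DDX41 knockdown, while 30.3% of all tested genes rose and 32.1% fell. CDK6, CCND3 and CDK4 were the members that rose. CDKN2C, CDK2, CCNE1, CDKN1B and CCND1 were lower, and CCNE2 was not called. In 8 of the 9 members no siDDX41 library overlapped the siCtrl range, as in 55.9% of all tested genes. The median log2 fold change was -0.14 over the tested members and -0.0014 over all tested genes, and the median absolute log2 fold change was 0.22 and 0.28. By size, 2101 genes (13.0%) changed at least as much as CDK6, the member with the largest change. Within a group the members varied little, with coefficients of variation of 1.41% to 6.46% over 5 libraries. The libraries hold bulk RNA, so a smaller share of cells in one cycle phase and less RNA per cell cannot be told apart. The labels number the replicates without naming separate cultures, and the p-values therefore measure only the spread between these samples, which may be technical.

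**Figure D1:**
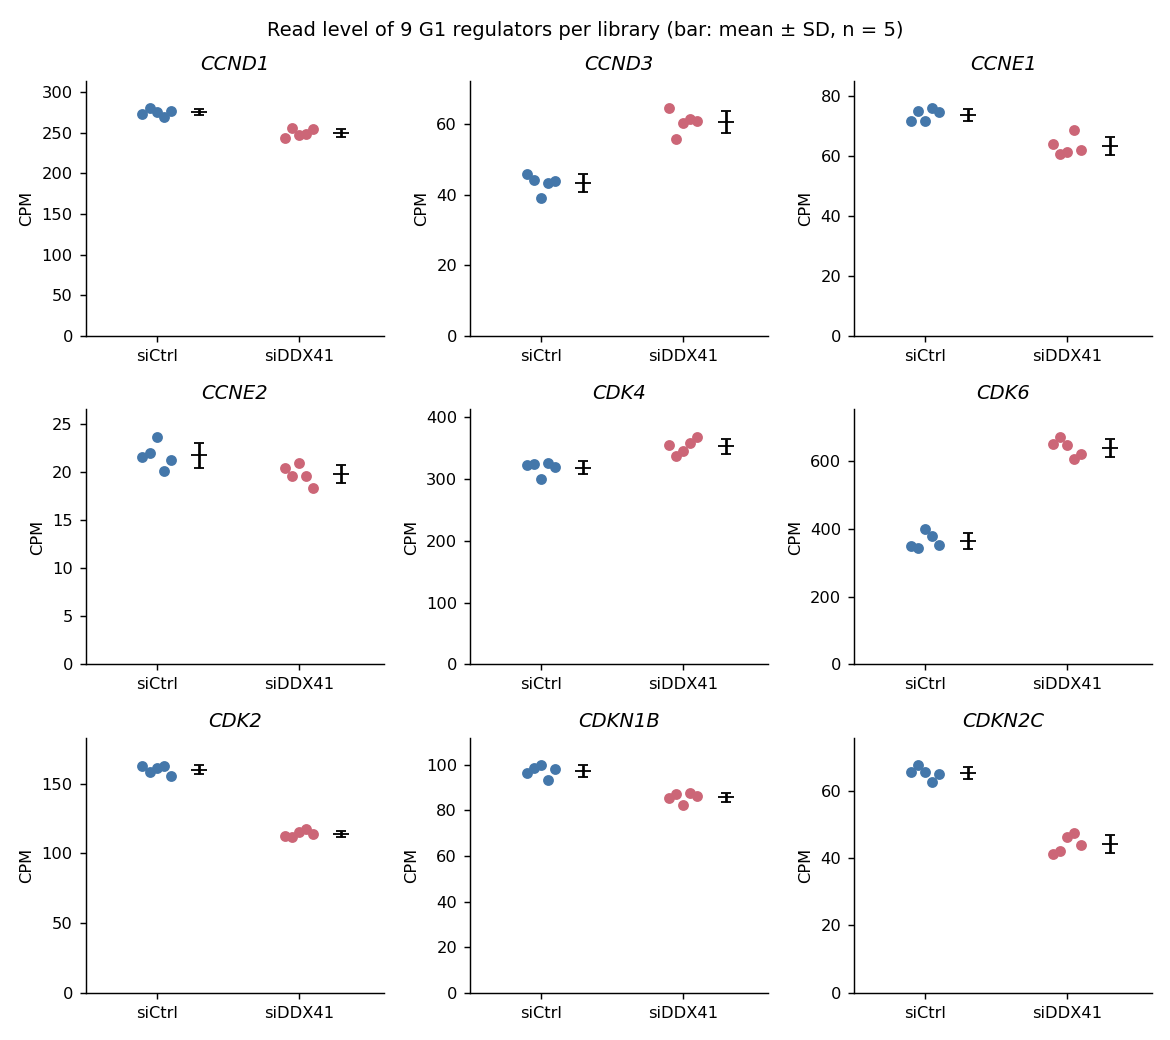
Read level in CPM (y axis, from 0) of the 9 tested members in each siCtrl (blue) and siDDX41 (red) library, with the mean and SD of 5 libraries beside the points. CDK6 lies at 604 to 670.4 CPM in siDDX41 and at 343 to 398 CPM in siCtrl, whereas the CCNE2 groups overlap.

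Sequence just upstream of the transcription start is shown for the 3 most changed members with an entry in the RefSeq promoter table (GRCh38.p14), CDK6, CDKN2C and CCND3, and for CDKN1B, whose window was the only one with a CCAAT box. Each run holds the 120 bases before the start given in that table, read 5′ to 3′ on the gene's strand. This strand is minus for CDK6 (chr7:92836574-92836693) and CCND3 (chr6:42048689-42048808), plus for CDKN2C (chr1:50960625-50960744) and CDKN1B (chr12:12717248-12717367). For CCND3 and CDKN1B, and for CDK4 among the windows searched below, that start lies inside the gene span and is not its outer end. Capitals mark GC boxes (GGGCGG, or CCGCCC when on the other strand) and the CCAAT box.
CDK6: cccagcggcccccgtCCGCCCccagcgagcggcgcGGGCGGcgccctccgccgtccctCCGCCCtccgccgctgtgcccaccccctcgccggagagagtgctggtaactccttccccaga
CCND3: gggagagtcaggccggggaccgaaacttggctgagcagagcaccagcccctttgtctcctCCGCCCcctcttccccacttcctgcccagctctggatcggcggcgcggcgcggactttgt
CDKN1B: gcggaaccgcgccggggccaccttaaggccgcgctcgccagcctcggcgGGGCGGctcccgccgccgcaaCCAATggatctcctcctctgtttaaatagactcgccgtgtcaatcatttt
CDKN2C: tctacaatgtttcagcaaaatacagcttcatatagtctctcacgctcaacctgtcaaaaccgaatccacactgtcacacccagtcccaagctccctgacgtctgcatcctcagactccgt

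Motifs were searched on both strands of the whole 300-base window, from 250 bases before to 50 after the start, for the 6 tested members with an entry. Windows of CCND3, CCNE1, CDK4, CDK6 and CDKN1B held the GC box GGGCGG, with 5, 7, 3, 3 and 1 matches, and that of CDKN2C held none. The same word occurs in 45.0% of all 35116 windows and in 63.9% of those of tested genes. CCAAT occurred 3 times in the CDKN1B window and in no other member's, against 34.6% of all windows and 34.2% of those of tested genes. None of the 6 windows held an E2F word (TTTCCCGC, TTTGGCGC, TTTCGCGC or TTTGCCGC, in 3.31% of all windows and 4.61% of those of tested genes). With shares in the same order, none held the cAMP response element TGACGTCA (1.85% and 2.68%) or the AP-1 word TGANTCA (7.71% and 5.66%). The cell cycle homology region TTTGAA (15.2% and 10.9%) and TATAAA (11.5% and 6.64%) were also absent. The CDK6 window was 78.0% G and C with 37 CpG pairs, that of CCND3 72.3% with 29, that of CDKN1B 62.3% with 29 and that of CDKN2C 46.3% with 8. The lowered CCNE1 had the window richest in G and C, at 81.0% with 47 CpG pairs, and the risen CDK4 had 66.0% with 23. Windows of the lowered CDKN1B and CDKN2C had less G and C than those of the risen CDK6, CCND3 and CDK4. A difference in base composition between windows of risen and lowered members was not tested. These matches describe letters in a window and say nothing about binding. Promoter windows of CCND1, CCNE2, CDK2, CDKN1C and CCND2 were not analysed here.

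The D-type cyclins, which carry growth signals to CDK4 and CDK6, moved in different directions. CCND1 (ENSG00000110092.3, chr11:69641156-69654474, plus strand), the D-type cyclin gene often amplified in tumors, was at 273, 279.7, 276, 269 and 276 CPM in siCtrl replicates 1 to 5. It was at 243, 255, 247, 248 and 255 CPM in siDDX41 replicates 1 to 5. All siDDX41 libraries were below all siCtrl libraries, but by a small step. The mean fell from 274.8 ± 3.88 to 249.6 ± 5.31 CPM (SD, n = 5 each), a change of -9.19% and a log2 fold change of -0.14 with a standard error of 0.026 (edgeR's quasi-likelihood test, Benjamini-Hochberg adjusted p = 2.00e-05). The exons of CCND1 overlap those of LTO1 on the opposite strand over 10.4% of their length, and LTO1 had 7.88% of the counts of CCND1 and was not called, with a log2 fold change of 0.07.

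CCND3 (ENSG00000112576.12, chr6:41934934-42050357, minus strand), a D-type cyclin best known from blood cells, was at 45.7, 44.2, 39.0, 43.4 and 43.8 CPM in siCtrl replicates 1 to 5. The siDDX41 replicates 1 to 5 had 64.5, 55.9, 60.4, 61.3 and 61.0 CPM. Control replicate 3 was the lowest of its group and knockdown replicate 2 the lowest of the other, and a gap of more than 10 CPM separated the groups. The mean rose from 43.2 ± 2.54 to 60.6 ± 3.09 CPM (SD, n = 5 each), or by 40.1%, with a log2 fold change of 0.49 and a standard error of 0.042 (edgeR's quasi-likelihood test, Benjamini-Hochberg adjusted p = 1.81e-11).

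CCND2, the remaining D-type cyclin, is not one of the 10 genes and was measured beside them. Its siCtrl libraries had 274, 252, 272, 271 and 257 CPM, and its siDDX41 libraries had 527, 503, 515, 501 and 513 CPM. Each siDDX41 library was thus far above the highest siCtrl library. The log2 fold change of CCND2 was 0.95 with a standard error of 0.028, a rise of 93.0% (edgeR's quasi-likelihood test, Benjamini-Hochberg adjusted p = 2.16e-22).

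To compare D-type cyclins with each other, CPM was divided by the length of their merged exons in kilobases. On this scale CCND1 made up 58.6% ± 1.02 of the D-type cyclin level in siCtrl and 41.3% ± 0.988 in siDDX41 (SD, n = 5 each). CCND2 made up 33.7% ± 1.09 of that level in siCtrl and 50.4% ± 0.678 in siDDX41. The order of the leading D-type cyclins was thus exchanged, with CCND1 above CCND2 in each of the 5 siCtrl libraries and CCND2 above CCND1 in each of the 5 siDDX41 libraries. CCND3 held 7.62% ± 0.441 and 8.28% ± 0.389, and the groups overlapped for this share. Set against CCND1 alone, CCND3 was 11.5% ± 0.630 of the pair in siCtrl and 16.7% ± 0.959 in siDDX41, without overlap. The size of the CCND3 shares depends on the length used, since with the longest transcript CCND3 held 14.8% and 15.9% of the D-type level and 21.8% and 30.1% of the pair. The summed level of the D-type cyclins was 98.4 ± 0.740 CPM per kilobase in siCtrl and 127.0 ± 1.26 in siDDX41, and these sums were not tested. Without CCND2, the sum of CCND1 and CCND3 was 65.2 ± 0.893 CPM per kilobase in siCtrl and 62.9 ± 0.774 in siDDX41. The nearest libraries of that sum were almost equal, at 64.1196 in siCtrl replicate 4 and 64.1122 in siDDX41 replicate 5. With longest transcript lengths the direction of this sum turned, to 82.9 ± 1.34 CPM per kilobase in siCtrl and 84.2 ± 0.845 in siDDX41 with overlapping groups, so no direction is read from it.

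**Figure D2:**
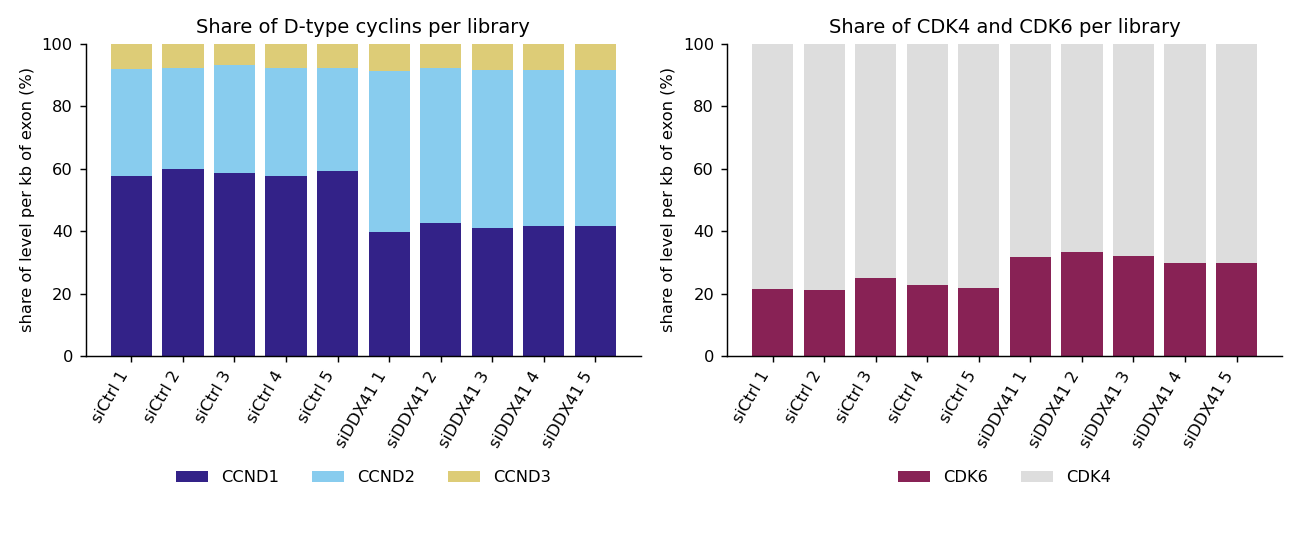
Share in percent (y axis) of each D-type cyclin in their summed level per kilobase of exon, and of CDK4 and CDK6 in theirs, with 1 bar per library. CCND1 takes 57.6% to 59.9% of the D-type level in siCtrl and 39.8% to 42.5% in siDDX41, and CDK6 takes 21.1% to 25.1% of the CDK4 plus CDK6 level in siCtrl and 29.8% to 33.4% in siDDX41.

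Both E-type cyclins, the partners of CDK2 at the entry into S phase, had lower means in siDDX41. CCNE1 (ENSG00000105173.13, chr19:29811991-29824312, plus strand) was at 71.6, 74.9, 71.8, 75.9 and 74.7 CPM in siCtrl replicates 1 to 5 and at 64.1, 60.8, 61.4, 68.5 and 61.9 CPM in siDDX41 replicates 1 to 5. Replicate 4 was the highest library of both groups, and all siDDX41 libraries were below the siCtrl range. CCNE1 fell by 14.1%, from 73.8 ± 1.96 to 63.3 ± 3.16 CPM (SD, n = 5 each), which gave a log2 fold change of -0.22 with a standard error of 0.035 (edgeR's quasi-likelihood test, Benjamini-Hochberg adjusted p = 2.67e-06).

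CCNE2 (ENSG00000175305.17), the E-type cyclin with fewer reads, had 21.6, 21.999, 23.7, 20.2 and 21.2 CPM in siCtrl replicates 1 to 5. The siDDX41 replicates 1 to 5 had 20.4, 19.6, 20.9, 19.6 and 18.4 CPM. The groups overlapped, since control replicate 4 was below knockdown replicates 1 and 3. The means were 21.7 ± 1.28 and 19.8 ± 0.955 CPM (SD, n = 5 each), and the log2 fold change of -0.14 had a 95% interval of -0.24 to -0.03. This missed the threshold (edgeR's quasi-likelihood test, Benjamini-Hochberg adjusted p = 0.0204), which does not show that the levels were equal. Without control replicate 4 the CCNE2 log2 fold change was -0.16 and passed the test (Benjamini-Hochberg adjusted p = 0.00868 from edgeR, with 0.000239 to 0.0768 over all alternatives). The exons of CCNE2 overlap those of INTS8 on the opposite strand over 37.0% of their length. INTS8 had 262% of the counts of CCNE2 and fell by 0.12 on the log2 scale. The strand setting of the counting is not given, and whether reads of this pair were mixed or lost was not tested. Per kilobase of exon, CCNE1 made up 85.8% ± 0.971 of the E-type level in siCtrl and 85.1% ± 0.864 in siDDX41, with overlapping groups. The summed E-type level was 34.9 ± 0.629 CPM per kilobase in siCtrl and 30.2 ± 1.30 in siDDX41, without overlap.

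The kinases of the D-type cyclins rose and the kinase of the E-type cyclins fell. CDK6 (ENSG00000105810.9, chr7:92604921-92836573, minus strand), which phosphorylates the retinoblastoma protein with a D-type cyclin, was at 348, 343, 398, 378 and 351 CPM in siCtrl replicates 1 to 5. The siDDX41 replicates 1 to 5 had 648, 670.4, 647, 604 and 619 CPM. Even the lowest siDDX41 library was more than 200 CPM above the highest siCtrl library. CDK6 rose 1.75-fold, from 363.6 ± 23.5 to 637.8 ± 26.0 CPM (SD, n = 5 each), with a log2 fold change of 0.81 and a 95% interval of 0.73 to 0.89 (edgeR's quasi-likelihood test, Benjamini-Hochberg adjusted p = 6.82e-14). By mean CPM, 389 genes were above CDK6 in siCtrl and 168 in siDDX41.

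CDK4 (ENSG00000135446.16, chr12:57747727-57756013, minus strand), the paralog of CDK6 with the same partners, had 324, 325, 299.6, 326 and 319 CPM in siCtrl replicates 1 to 5. In siDDX41 replicates 1 to 5 the values were 355, 337, 345, 358 and 368 CPM. Control replicate 3 stood below the other controls, and all siDDX41 libraries were above all controls. CDK4 rose by 10.7%, from 318.7 ± 10.9 to 352.9 ± 12.0 CPM (SD, n = 5 each), which gave a log2 fold change of 0.15 with a standard error of 0.029 (edgeR's quasi-likelihood test, Benjamini-Hochberg adjusted p = 4.77e-05). Over 44.2% of its exon length CDK4 overlaps TSPAN31 on the opposite strand, a gene with 6.65% of the counts of CDK4 and a log2 fold change of -0.61. Per kilobase of exon, CDK6 was 22.4% ± 1.64 of the CDK4 plus CDK6 level in siCtrl and 31.4% ± 1.54 in siDDX41 (SD, n = 5 each), without overlap. CDK4 remained the larger share in every library. The summed level of both kinases was 132.7 ± 2.50 CPM per kilobase in siCtrl and 166.2 ± 2.49 in siDDX41, a difference of 25.2%. The size of this sum depends on the length used, since with the longest transcript it was 202.0 ± 4.60 and 243.9 ± 4.81, also without overlap.

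CDK2 (ENSG00000123374.10, chr12:55966781-55972789, plus strand), the partner of cyclins E and A, was at 163, 158, 161, 163 and 155 CPM in siCtrl replicates 1 to 5. In siDDX41 replicates 1 to 5 it was at 112, 112, 115, 118 and 114 CPM. The libraries of each group lay close together and the groups were well apart. CDK2 fell by 28.6%, from 160.0 ± 3.25 to 114.2 ± 2.27 CPM (SD, n = 5 each), which gave a log2 fold change of -0.49 with a standard error of 0.028 (edgeR's quasi-likelihood test, Benjamini-Hochberg adjusted p = 1.49e-15). A long noncoding RNA gene on the opposite strand shares 14.5% of the exon length of CDK2 but had 7 counts over all libraries.

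CDKN2C (ENSG00000123080.10, chr1:50960745-50974634, plus strand) encodes p18, an INK4 inhibitor of CDK4 and CDK6. Its siCtrl replicates 1 to 5 had 65.6, 67.5, 65.6, 62.6 and 64.9 CPM, and its siDDX41 replicates 1 to 5 had 41.1, 42.0, 46.3, 47.4 and 43.97 CPM. The highest siDDX41 library was more than 15 CPM below the lowest siCtrl library. CDKN2C fell by 32.3%, from 65.2 ± 1.79 to 44.1 ± 2.69 CPM (SD, n = 5 each), the largest decrease among the members, with a log2 fold change of -0.56 and a standard error of 0.039 (edgeR's quasi-likelihood test, Benjamini-Hochberg adjusted p = 1.32e-13).

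CDKN1B (ENSG00000111276.10, chr12:12685498-12722369, plus strand) encodes p27, a CIP/KIP inhibitor of cyclin E-CDK2. It was at 96.3, 98.4, 99.7, 93.2 and 97.9 CPM in siCtrl replicates 1 to 5 and at 85.3, 87.1, 82.4, 87.4 and 86.2 CPM in siDDX41 replicates 1 to 5. The siDDX41 libraries were all lower, and the step between the groups was small. CDKN1B fell by 11.8%, from 97.1 ± 2.47 to 85.7 ± 2.03 CPM (SD, n = 5 each), which gave a log2 fold change of -0.18 with a standard error of 0.030 (edgeR's quasi-likelihood test, Benjamini-Hochberg adjusted p = 5.11e-06). CCND1 and CDKN1B moved by like amounts, and the log2 ratio of CDKN1B to CCND1 counts was -1.50 ± 0.023 in siCtrl and -1.54 ± 0.035 in siDDX41 with overlapping groups. The log2 ratio of CDKN1B to CCNE2 counts also overlapped between the groups, at 2.16 ± 0.054 and 2.12 ± 0.097. Summed per kilobase of exon, CDKN1B and CDKN2C were at 32.1 ± 0.817 CPM in siCtrl and 23.9 ± 0.882 in siDDX41.

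CDKN1C (ENSG00000129757.12, chr11:2883213-2885775, minus strand), which encodes the CIP/KIP inhibitor p57, was listed at 0 in all 10 libraries. TUBB and DDX39B, which every cell uses and which were looked up after this value was seen, were also listed at 0 in all 10 libraries. A 0 in these tables can therefore not be read as absence of the transcript, and CDKN1C has no fold change here.

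**Figure D3:**
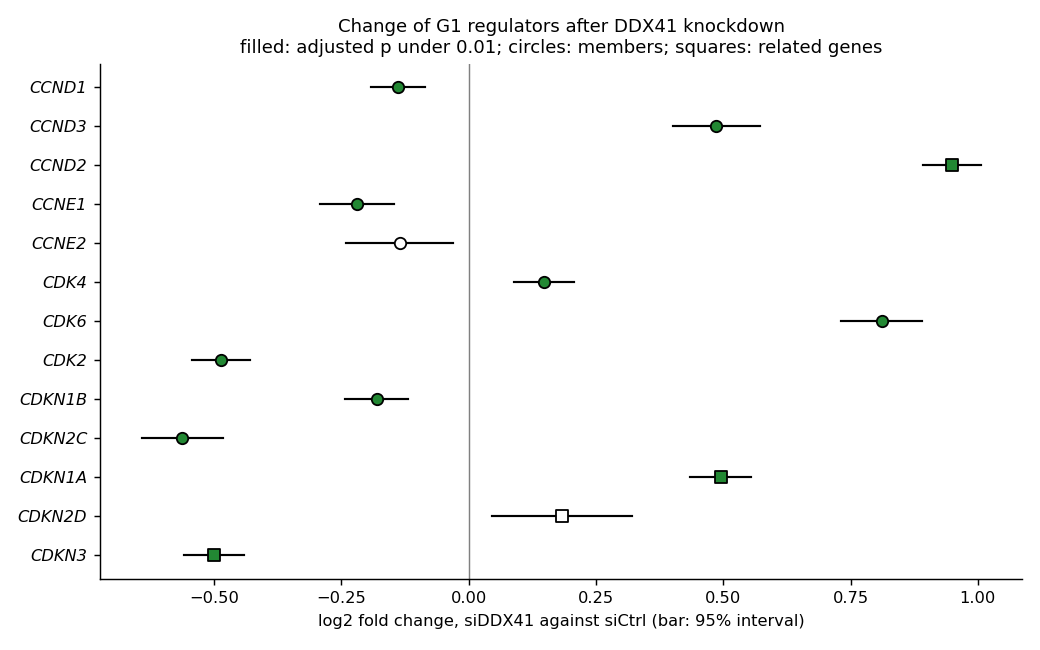
Log2 fold change of siDDX41 against siCtrl (x axis) with its 95% interval for the tested members (circles) and 4 related genes (squares), filled where called. CDK6 and CCND2 lie furthest right at 0.81 and 0.95, CDKN2C lies furthest left at -0.56, and CCNE2 and CDKN2D are not called.

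Per kilobase of merged exon, CDK4 had the highest level of these genes in siCtrl, 103.0 ± 3.53 CPM, followed by CCND1 with 57.7 ± 0.814, CDK2 with 41.2 ± 0.835 and CCND2 with 33.2 ± 1.23 (SD, n = 5 each). CCNE1 with 30.0 ± 0.797 and CDK6 with 29.7 ± 1.92 CPM per kilobase came next, and their siCtrl libraries overlapped. Lower on the same scale were CDKN2C with 21.6 ± 0.592, CDKN1B with 10.5 ± 0.267, CCND3 with 7.50 ± 0.440 and CCNE2 with 4.94 ± 0.292 CPM per kilobase. In siDDX41 the order was CDK4 with 114.1 ± 3.88, CCND2 with 64.1 ± 1.30, CCND1 with 52.4 ± 1.11 and CDK6 with 52.1 ± 2.13 CPM per kilobase, where CCND1 and CDK6 overlapped. CDK2 followed with 29.4 ± 0.585, CCNE1 with 25.7 ± 1.28 and CDKN2C with 14.6 ± 0.891 CPM per kilobase. CDK6 thus moved from below CDK2 in every siCtrl library to above it in every siDDX41 library. CCND3 with 10.5 ± 0.536 stood above CDKN1B with 9.26 ± 0.220 CPM per kilobase in siDDX41, the reverse of their order in siCtrl. With the length of the longest transcript in place of merged exons, the siCtrl order of the means was the same, but several levels were much higher. CDK4 then had 170.9, CDKN1B 22.4 and CCND3 18.1 CPM per kilobase in siCtrl. CDKN2C had 22.5, and its siCtrl libraries overlapped those of CDKN1B. In siDDX41, CDKN2C came after CCND3 and CDKN1B with these lengths.

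Base composition moved with the fold changes of all genes. In 5 equal groups of genes by transcript GC content, the median log2 fold change was 0.08 in the lowest group, then 0.04, -0.02 and -0.07, and -0.07 in the highest. CDK6 (39.7% GC) and CCNE2 (36.9%) were in the lowest group and CDKN2C (58.1%) in the highest, while CCND3 (56.2%), CDK4 (52.0%), CCNE1 (51.7%) and CDK2 (51.5%) were in the group next to the highest. After a correction for this trend, chosen after seeing the data, the log2 fold change was 0.75 for CDK6, -0.46 for CDKN2C and 0.58 for CCND3. CCND1 moved from -0.14 to -0.09, a change of over 1.5 times, and was still called. CCNE2 moved from -0.14 to -0.21 with this correction and was then called. Gene span showed no such order. The risen CDK6 (231653 bases) and CCND3 (115424 bases) were in the group of longest genes, and the lowered CDK2 (6009 bases) in the group of shortest. The risen CDK4 (8287 bases) was in the group next to the shortest, as were the lowered CCND1, CCNE1 and CDKN2C. The lowered CDKN1B (36872 bases) was in the middle group.

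Genes with a pattern like that of the 3 most changed members were sought among 11237 genes with a mean of at least 5 CPM, by the root mean square difference over the 10 libraries of log2 CPM relative to the siCtrl mean. For CDK6 the nearest were PLCXD2 (0.0423), EXPH5 (0.0428) and DICER1 (0.0460), with log2 fold changes of 0.80, 0.82 and 0.80. For CDKN2C they were STK38 (0.0278), ZNF22 (0.0379) and MMGT1 (0.0400), with log2 fold changes of -0.57, -0.59 and -0.55. For CDK2 they were CBX1 (0.0208), WBP11 (0.0238) and TTF2 (0.0243), with log2 fold changes of -0.49, -0.51 and -0.51. The measure includes the shift between the groups, so the like fold changes follow from the selection, and shared regulation was not tested.

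The other CDK inhibitors gave 1 higher and 1 lower gene of 3 tested, with a median log2 fold change of 0.18. CDKN1A, which encodes the CIP/KIP inhibitor p21, rose from 154.7 ± 5.72 to 218.0 ± 5.07 CPM, opposite to its relative CDKN1B, with a log2 fold change of 0.49 (edgeR's quasi-likelihood test, Benjamini-Hochberg adjusted p = 3.09e-15). CDKN3, a phosphatase that acts on CDKs, fell by 0.50 on the log2 scale. The INK4 gene CDKN2D, relative of CDKN2C, had a log2 fold change of 0.18 with a 95% interval of 0.05 to 0.32 and missed the threshold (edgeR's quasi-likelihood test, Benjamini-Hochberg adjusted p = 0.0169). CDKN2D was called, with a higher level in siDDX41, without siCtrl replicate 1 or siDDX41 replicate 2, with upper quartile scaling and with the GC correction. Over all alternatives, which include DESeq2 and limma beside edgeR, its Benjamini-Hochberg adjusted p was 0.00106 to 0.0615. CDKN2A and CDKN2B, the remaining INK4 genes, had 6 and 75 counts over all libraries and were not tested. CDKN2B had 54 counts in siCtrl and 21 in siDDX41, and CDKN2A had 3 in each group.

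The counts in the related lists stand beside 30.3% higher and 32.1% lower among all tested genes, and no list was tested as a set. All 6 tested genes among the S and M phase cyclins and CDK1 fell, with a median log2 fold change of -0.38. CCNF was at -0.50, CDK1, the mitotic kinase, at -0.39 and CCNB1 at -0.37, and CCNA1 was not tested. Of 28 genes known as E2F targets, 18 fell and 3 rose, with a median log2 fold change of -0.27. GINS2, MCM3 and TYMS, which act in DNA replication and nucleotide supply, had log2 fold changes of -0.73, -0.57 and -0.48. Among 12 tested pocket proteins, E2F and DP factors, 6 fell and 3 rose (median -0.15), with E2F1 at -0.75, its partner TFDP1 at -0.42 and E2F5 at 0.82. E2F2 was listed at 0 in all 10 libraries.

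Of 19 ubiquitin ligase and turnover factors of G1 regulators, 7 rose and 7 fell, with a median log2 fold change of 0.04, against 30.3% higher and 32.1% lower among all tested genes. Shares near these, as also in the lists of transcriptional CDKs and of transcription factors, are no result about a list. SKP2, the ligase subunit that targets p27, fell by 0.55 on the log2 scale, while FBXW7, which targets cyclin E, rose by 0.63 and DDB1 fell by 0.38. Of 7 CDK phosphatases, inhibitory kinases and chaperones, 3 rose and 1 fell (median 0.06), with CDC25B at -0.71, CDC25A at 0.28 and CDC37, a chaperone of CDK4 and CDK6, at 0.22. Among 15 tested CDK-activating and transcriptional CDKs and cyclins, 4 rose and 5 fell (median 0.06), with CCNH at 0.45, CCNT2 at 0.32 and CDK19 at -0.36, and CDK7 with 5 counts over all libraries was not tested. Of 17 transcription factors known to act on G1 regulator genes, 7 rose and 6 fell (median 0.09), with FOXO4 at -1.54, FOXM1 at -1.20 and LEF1 at -1.05.

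**Figure D4:**
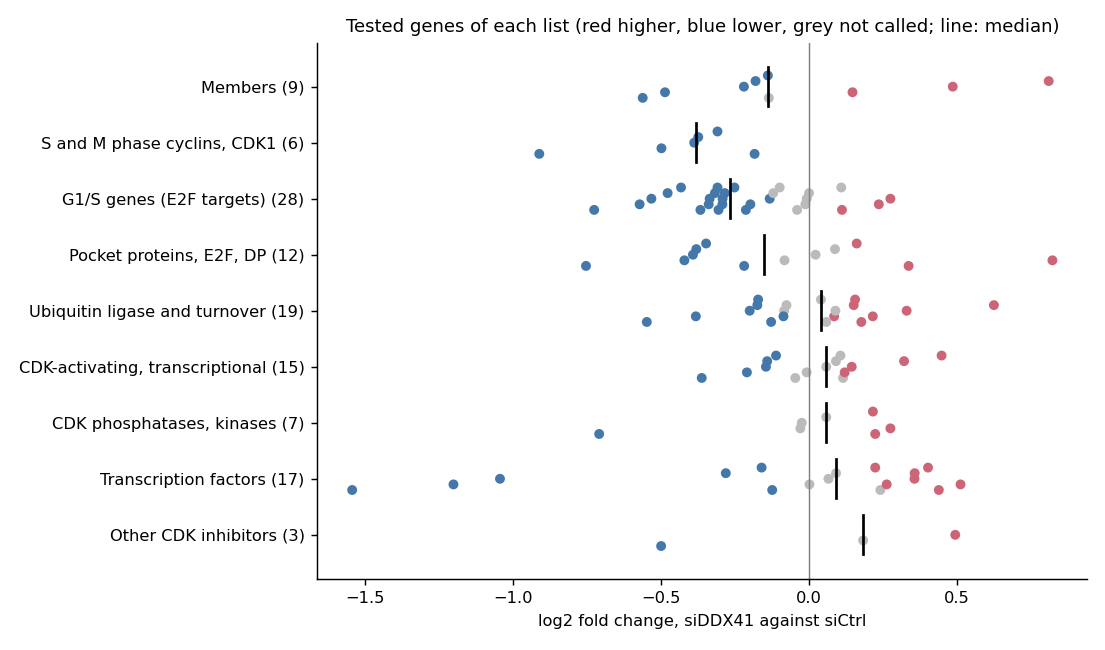
Log2 fold change (x axis) of each tested gene in the members and 8 related lists, red where higher, blue where lower and grey where not called, with the median as a black line. The S and M phase genes lie left of 0 with a median of -0.38, and the members spread from -0.56 to 0.81.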

How the data were processed

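Polyadenylated RNA of 10 U2OS libraries was prepared with a stranded kit. The authors aligned single reads to hg38 with STAR 2.7 and Gencode 25 and counted them per gene with featureCounts 1.6, and the deposited files hold whole, unnormalized read counts. The strand setting and the treatment of reads with several matches are not given in the sources used here. Ensembl identifiers without version were looked up in GENCODE 44 (GRCh38), which named 56948 of 63299 genes and gave positions, exon lengths and GC content.

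One model with the group as its only term was fitted to all genes by edgeR 4.0.16 under R 4.3.3. It used the filterByExpr filter, TMM scaling, glmQLFit with robust estimation and glmQLFTest, and p-values were adjusted by the Benjamini-Hochberg method over 16143 genes. The biological coefficient of variation was 3.65%. For the 20 pairs of libraries within a group, chi-square divided by its degrees of freedom was 1.84 to 6.18, above sampling noise. The procedure was also run on simulated counts, and no result given here rests on that run. Shares, sums and ratios are descriptions without a test. Tables were handled with Python 3.11.15, pandas 2.3.3 and numpy 2.4.6, and figures were drawn with matplotlib 3.10.9.

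Named genes are the 10 members, DDX41, CCND2, the other CDK inhibitors, up to 3 genes per further list with the smallest adjusted p-value, and the 3 nearest patterns of the 3 members with the largest change. Other genes are named where a marker, an overlapping exon or a count of 0 called for it, and those of the closing observations were picked after their values were seen. The members and lists were chosen with earlier results of these data known.

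Alternatives changed the scaling, filter, test (DESeq2 1.42.0, limma 3.58.1), thresholds, exon length and libraries, added the replicate number as a block, or corrected for GC content. The GC correction, which removed a lowess trend from each library, and the alternatives for summed levels were chosen after seeing the data.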

Additional observations from a re-analysis of the deposited data

Results flagged for a closer look

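Among 116 groups of 5 libraries examined, 6 had a library standing far from the others, and chance gives about 1 in 20 such groups. In siCtrl replicate 3, CDK4 had 299.6 CPM while the other controls had 319 to 326, CDKN1A had 144.7 CPM against 156 to 159, and TYMS had 744.7 CPM against 776 to 786. The share of CCND3 in the D-type cyclin level was 6.86% in that library and 7.69% to 7.97% in the other controls. RUNX2 was at 26.1 CPM in siDDX41 replicate 2 against 24.1 to 24.4 in the rest of its group. SPARC was at 2749.6 CPM in siCtrl replicate 2 and at 2812 to 2833 in the other controls.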

How the results depend on the processing

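Each of the 8 called members kept its direction and its call under every alternative except the demand for a log2 fold change over 0.25. That demand left 2 of the 5 lower members and lost CCND1, CCNE1, CDK4 and CDKN1B. It reduced the higher genes of the related lists from 28 to 15 and the lower ones from 49 to 33. The share of all tested genes that pass this demand is not given here, so these counts are no result about the members or lists. CCNE2 was called at an adjusted p-value under 0.05, with the GC correction and without siCtrl replicate 4. CDKN2D was called in the first 2 of these settings, with upper quartile scaling, and without siCtrl replicate 1 or siDDX41 replicate 2. With longest transcript lengths, the difference in share of the D-type level was -16.3 percentage points for CCND1 (-17.4 with merged exons), 15.2 for CCND2 (16.7) and 1.08 for CCND3 (0.656). The difference was then 8.28 for CCND3 within the CCND1 and CCND3 pair (5.21) and 6.99 for CDK6 within the CDK4 and CDK6 pair (8.97), by construction of the lengths. The summed CCND1 and CCND3 level reversed with longest transcript lengths, to 1.29 CPM per kilobase higher in siDDX41 (82.9 and 84.2, against 65.2 and 62.9 with merged exons), in an alternative chosen after seeing the data. No called member reversed. Leaving out each library in turn gave 3 higher and 5 to 6 lower members, and a log2 fold change of 0.79 to 0.84 for CDK6.

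Same-numbered libraries did not deviate together over all tested genes (correlations of -0.0524 to 0.0446), so no pairing by number was seen. Genes with few reads counted as much as others in this check, and a weak pairing could be missed. With the replicate number as a block, 3 members were higher and 5 lower, and 28 and 48 genes of the related lists. The share of all tested genes called with this block is not given here, so the counts only show how the calls held.

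Scaling moved the median log2 fold change of all genes by at most 0.017. Genes with few counts, such as CDKN2A, could not be compared, and the reason for their low counts was not tested. Whether unstranded or differently assigned reads contribute to CCND1, CDK4, CCNE2 or the genes listed at 0 was not tested.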

Other observations

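The genes here were picked from the related lists after their values were seen. The 3 risen E2F targets, among 18 that fell, were CDC25A, CDC6 and MCM6, with log2 fold changes of 0.28, 0.24 and 0.11. CDC6 loads the replicative helicase onto origins and MCM6 is one of its subunits, whereas MCM3, MCM4, MCM2 and MCM7 of the same complex had log2 fold changes of -0.57, -0.34, -0.32 and -0.13. MCM5 was not called, with 0.11 and a 95% interval of 0.02 to 0.20.

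Among the transcription factors, MYC rose from 64.4 ± 2.25 to 91.9 ± 3.27 CPM (SD, n = 5 each) and JUN from 108.6 ± 6.67 to 147 ± 6.43 CPM, both without overlap between the groups. FOS, FOSL1 and EGR1, which growth signals induce, had log2 fold changes of 0.36, 0.26 and 0.36, while FOSL2 fell by 0.16 on the log2 scale. JUNB and JUND of the same list were not called, at 0.24 and 0.0017. In the pocket protein family RBL2 fell by 0.38 on the log2 scale, and RB1 and RBL1 were not called, at -0.08 and 0.02. Activator E2F genes went both ways, with E2F3 at 0.34 and E2F1 at -0.75.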
